A study of Rattus norvegicus with 20 samples.

Results

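The collagens, laminins and integrins are the chains of the extracellular matrix of the brain and the receptors that hold cells to it. Their transcripts were counted in the medial prefrontal cortex (mPFC) of 10 LSD-treated rats and 10 saline controls. Members were chosen by gene symbol: *Col* with a number and a chain letter, the laminin symbols *Lama*, *Lamb* and *Lamc*, and the integrin symbols *Itga* and *Itgb*, without *Itgam*. Of 31038 symbols listed, 84 had such a name, and 75 of these reached 5 reads in 10 or more of the 20 rats, as did 16605 genes in all. They were 39 collagen symbols, 11 laminins and 25 integrin symbols. Of the 75, 4 carry the name but are no chain. *Col4a3bp* encodes a ceramide transfer protein, *Itgb1bp1* and *Itgb3bp* encode binding partners of integrin tails, and *Itgbl1* encodes a secreted protein that resembles integrin beta chains. This leaves 38 collagen chains, 11 laminin chains and 22 integrin subunits.

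LSD-treated rats were injected intraperitoneally with LSD at 0.16 mg/kg every other day over 90 days, and controls received sterile saline on the same schedule. All were male Sprague-Dawley rats with no genetic change, 6 to 8 weeks old at the start, and the labels place tissue collection 3 weeks after treatment ended. The methods text of the study gives other figures for this age and interval, which are the same for both groups. Each rat gave 1 poly(A) library from the mPFC, and each value below is a sum over all cell types of the dissected tissue, in which fewer cells of a type and less RNA per cell cannot be told apart.

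The LSD libraries held 16346629 to 25552681 reads on genes and the saline libraries 11098076 to 24201351. Levels are given as RPM, the reads of a gene scaled to a common library total after TMM normalisation. They depend on transcript length and are compared between rats only, not between genes. Markers of cortical tissue were present in every rat: 9 neuronal markers summed to between 8678 and 12169 RPM, and 7 oligodendrocyte markers to between 2354 and 7724 RPM. Of 7 markers of the choroid plexus, which the dissection should not hold, *Otx2* had no read in any rat. The sum of all 7 ranged from 4.01 to 50.3 RPM. Most of it was *Aqp1*, with means of 17.4 RPM in LSD-treated rats and 19.1 RPM in controls, while *Ttr* had 1.40 and 0.958 RPM. The 12 markers of vascular and leptomeningeal fibroblasts, the main source of fibrillar collagen around the brain, summed to between 130 and 728 RPM in LSD-treated rats and between 227 and 1250 RPM in controls. This 9.61-fold range came with wide differences between rats within each group, which are described below with the members they touch. The 12 markers did not weigh alike in this sum. *Igf2* weighed most, with means of 183 RPM in LSD-treated rats and 224 RPM in controls, followed by *Fbln1* with 82.9 and 101 RPM.

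As background, collagen chains fold in threes into a triple helix and build fibrils, networks or beaded filaments. Laminins are trimers of 1 alpha, 1 beta and 1 gamma chain, and with the type IV collagen network they form the basement membrane that lies around brain vessels and under the meninges. Integrins are receptors of 1 alpha and 1 beta subunit that bind these proteins outside the cell and the actin cytoskeleton within it. In the adult cortex most fibrillar collagen and laminin is made by cells of vessels and meninges, while several integrins also occur in neurons, astrocytes, oligodendrocytes and microglia.

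Of the 75 members, 6 differed between LSD-treated rats and controls at an adjusted p under 0.05 in edgeR's quasi-likelihood test, that is 8% against 15.0% of all genes tested. *Col19a1*, *Col4a3*, *Col4a3bp* and *Itgav* rose, and *Itgb5* and *Itgb7* fell. The collagen chains gave 2 of 38, the laminins 0 of 11 and the integrin subunits 3 of 22, so that no family stood above the share of all genes. By direction, 6.48% of all genes were called higher and 8.54% lower. At an unadjusted p under 0.05, 7 collagen symbols, 1 laminin and 7 integrin symbols passed, against 30.8% of all genes. The median log2 fold change was 0.02 for collagens, 0.01 for laminins and -0.02 for integrins, beside 0.00 for all genes, and 42 of the 75 members had a positive value. In no member did the 2 groups of rats lie fully apart, as they did in 0.193% of all genes.

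**Figure D1:**
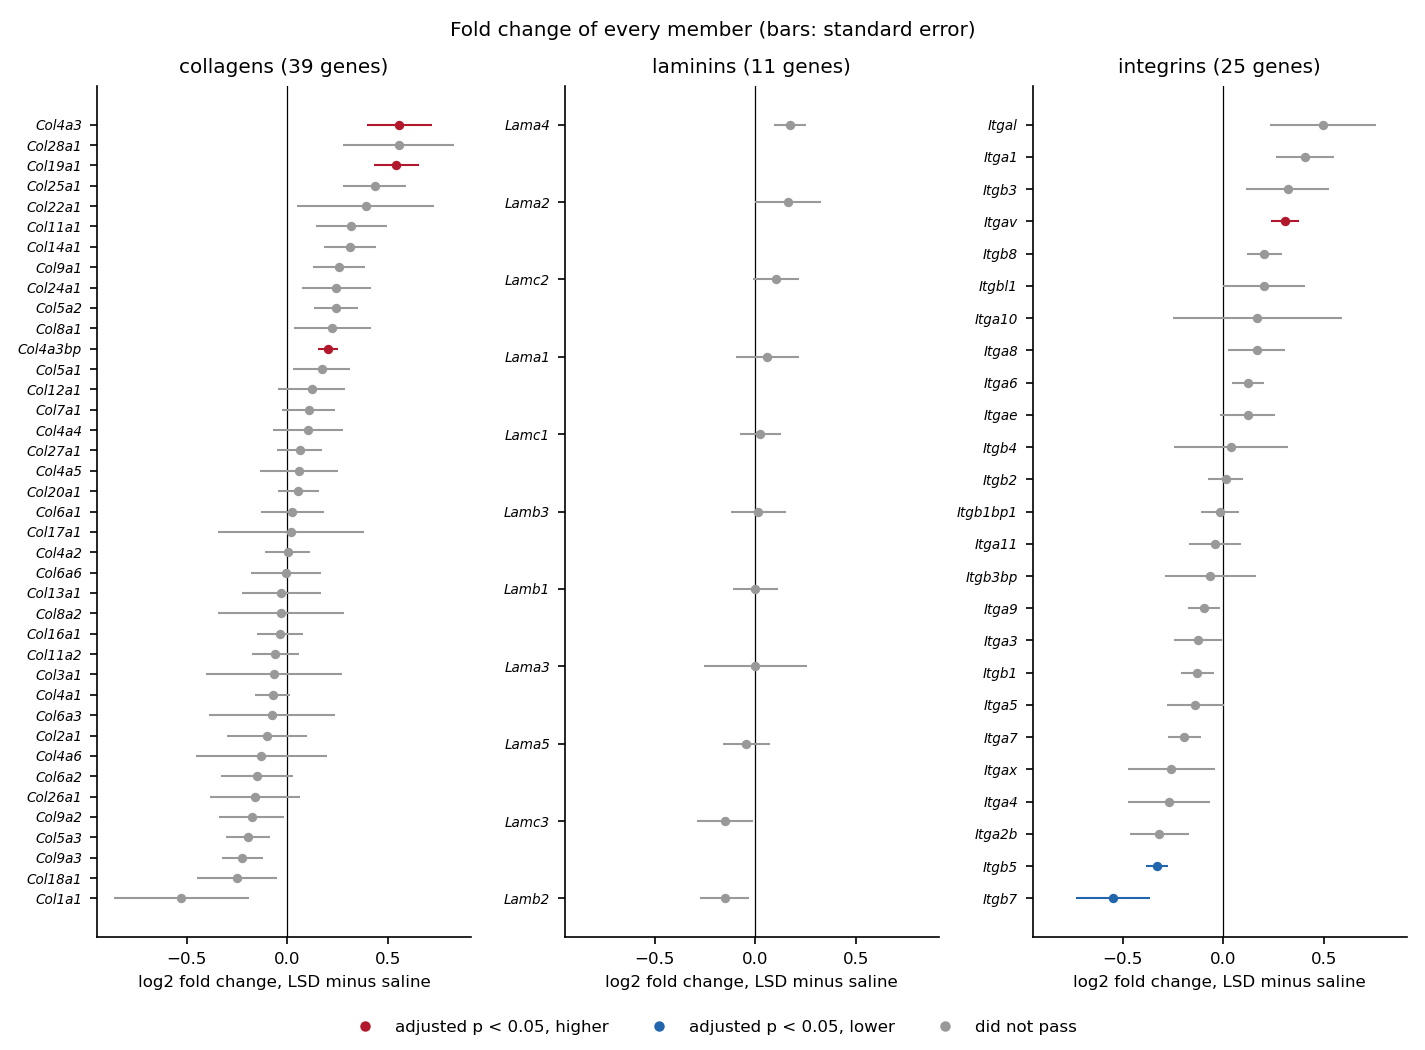
Log2 fold change of LSD-treated rats against controls (x axis) for each of the 39 collagen, 11 laminin and 25 integrin symbols (y axis), with bars for the standard error over 10 rats per group. Red and blue points passed an adjusted p of 0.05, 4 higher and 2 lower; the laminins lie within 0.17 of 0 and none passed.

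Among the collagens, the member with the smallest adjusted p was *Col19a1*, a fibril-associated collagen that neurons, some interneurons among them, make in the brain. In the 10 LSD-treated rats its lowest, median and highest levels were 19.99, 31.4 and 43.7 RPM, and in the 10 controls 15.6, 19.9 and 27.0 RPM. All LSD-treated rats lay above the control median and 8 lay above every control; LSD-treated rats 7 and 10 fell within the control range. It rose 1.46-fold (log2 fold change 0.54, SE 0.11, adjusted p = 0.00632), and it passed in each of 12 alternative analyses and without any 1 of the 20 rats. *Col4a3*, a chain of the type IV network that is best known from the basement membranes of kidney and inner ear, had only 16 to 74 reads per rat. Its levels were 1.80, 2.41 and 3.66 RPM in LSD-treated rats and 0.806, 1.84 and 2.31 RPM in controls, with 6 LSD-treated rats above all controls. It rose by 0.56 on the log2 scale (SE 0.16, adjusted p = 0.0250), and the call was lost with an offset for gene span (adjusted p = 0.0503) and without LSD-treated rat 4 (adjusted p = 0.0506).

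*Col4a3* shares its start region with *Col4a4*, which is read in the other direction from a start 413 bases away in the RefSeq annotation of GRCr8. *Col4a4* had 9 to 27 reads per rat and did not pass (0.10, SE 0.17, adjusted p = 0.744). *Col4a3bp* is no relative of either; its protein carries ceramide from the endoplasmic reticulum to the Golgi. Its lowest, median and highest levels were 84.5, 96.4 and 103.5 RPM in LSD-treated rats and 70.3, 80.9 and 94.7 RPM in controls. It rose by 0.20 (SE 0.051, adjusted p = 0.0136), with 6 LSD-treated rats above all controls, and lost the call with the gene span offset (0.12, adjusted p = 0.107).

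The 10 tested chains of fibrillar collagens, which form the cable-like fibrils of connective tissue, gave no call in edgeR, and 1 of them had an unadjusted p under 0.05. *Col1a1*, the main chain of type I collagen, had the most negative value of all collagens. It ranged from 15.0 to 102.6 RPM in LSD-treated rats with a median of 60.0, and from 26.8 to 176.6 RPM in controls with a median of 81.5. Its log2 fold change of -0.53 had an SE of 0.34 (adjusted p = 0.299), and the groups overlapped widely. *Col3a1*, the type III chain that is laid down with type I, ranged from 10.3 to 88.4 RPM in LSD-treated rats and from 15.7 to 115.9 RPM in controls. Its value was -0.07 (SE 0.34, adjusted p = 0.919), and the sign turned with the summed fibroblast markers as a covariate, without the 2 rats at the ends of that sum, and without single rats, control 10 (0.14) and LSD-treated rat 3 (0.055) among them. *Col5a1*, whose protein starts fibril assembly, had a value of 0.17 (SE 0.14, adjusted p = 0.447). *Col1a2*, the partner of *Col1a1* in type I collagen, was not tested: it had 95 reads in LSD-treated rat 6, 15 in LSD-treated rat 4, 14 in control 1 and 0 to 3 in the other rats, in which *Col1a1* had 303 reads or more.

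The other tested chains of the type IV network, the lattice of every basement membrane, were *Col4a1*, *Col4a2*, *Col4a5* and *Col4a6*, and none passed. *Col4a1* had levels of 29.8, 34.7 and 42.1 RPM in LSD-treated rats and 26.6, 34.8 and 46.0 RPM in controls, and *Col4a2* had 41.6, 60.2 and 79.3 RPM against 41.4, 62.6 and 77.7 RPM. Their log2 fold changes were -0.07 (SE 0.087, adjusted p = 0.609) and 0.00 (SE 0.11, adjusted p = 0.995); these 2 chains form the common heterotrimer of brain vessels. *Col18a1*, a heparan sulphate collagen of vascular basement membranes from which endostatin is cut, was at -0.25 (SE 0.20, adjusted p = 0.415), and *Col15a1*, its closest relative, had 1 to 9 reads and was not tested. *Col6a1*, a chain of the beaded filaments of type VI collagen, was at 0.02 (SE 0.16, adjusted p = 0.937).

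Of the membrane-spanning collagens, *Col25a1* came closest to the threshold. It encodes a neuronal protein also found in amyloid plaques, from which its other name CLAC comes. Its levels were 5.41, 9.30 and 13.2 RPM in LSD-treated rats and 3.53, 7.26 and 10.03 RPM in controls, with 9 LSD-treated rats above the control median. The difference of 0.43 (SE 0.16) did not pass in edgeR (adjusted p = 0.0624) but did in DESeq2 (adjusted p = 0.0386), which called 18.4% of all genes, and in 3 other analyses. Of the 9 tested fibril-associated collagens, *Col19a1* alone passed. The remaining collagens, among them the chains of types VIII, IX, XI and XII, had log2 fold changes between -0.22 and 0.55 and did not pass.

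Because *Col4a1* and *Col4a2* are read in opposite directions from starts only 77 bases apart, the stretch between them is shown as the start region that both chains share. It lies at chr16:84885521-84885596 of GRCr8, on the strand of *Col4a1*, and was taken from RefSeq, whose list of start regions has an entry for 58 of the 75 members. Regions of 250 bases before a listed start are also shown for the members that passed in every alternative. These are *Col19a1* (chr9:34518258-34518507, minus strand), *Itgav* (chr3:89245132-89245381, plus strand) and *Itgb5* (chr11:80449374-80449623, minus strand). The *Col19a1* region overlaps the annotated span of the gene, which reaches to base 34518478, so its listed start lies inside that span. Capitals mark GGGCGG, the GC box, on either strand. The TATA box TATAAA and the CCAAT box were searched in the same way and did not occur in these 4 sequences.
Col4a1-Col4a2: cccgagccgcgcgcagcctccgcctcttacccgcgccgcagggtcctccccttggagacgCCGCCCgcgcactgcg
Col19a1: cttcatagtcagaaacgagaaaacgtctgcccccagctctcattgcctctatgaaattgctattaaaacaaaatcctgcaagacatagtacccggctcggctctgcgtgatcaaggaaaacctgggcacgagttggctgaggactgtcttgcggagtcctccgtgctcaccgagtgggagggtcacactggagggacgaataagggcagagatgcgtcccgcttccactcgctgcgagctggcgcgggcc
Itgav: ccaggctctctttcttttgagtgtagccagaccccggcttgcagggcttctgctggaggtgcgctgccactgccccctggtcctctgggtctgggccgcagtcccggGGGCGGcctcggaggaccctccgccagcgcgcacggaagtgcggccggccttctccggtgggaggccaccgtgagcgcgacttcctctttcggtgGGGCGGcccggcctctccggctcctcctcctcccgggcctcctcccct
Itgb5: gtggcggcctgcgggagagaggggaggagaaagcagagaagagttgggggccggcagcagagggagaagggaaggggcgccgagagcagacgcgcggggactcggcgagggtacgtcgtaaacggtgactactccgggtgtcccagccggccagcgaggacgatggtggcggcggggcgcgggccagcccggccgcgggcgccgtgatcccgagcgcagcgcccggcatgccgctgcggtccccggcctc
The region of *Itgav* holds 2 GC boxes and the shared stretch of *Col4a1* and *Col4a2* holds 1, while the regions shown for *Itgb5* and *Col19a1* hold none. Among 27457 promoters in the table, 32.4% held a GC box within 250 bases before the start, 13.1% a TATA box and 34.3% a CCAAT box. Within 76 bases before the start, the length of the shared stretch, these shares were 19.3%, 4.78% and 12.96%. These matches describe letters only.

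None of the 11 laminin chains passed at an adjusted p under 0.05 in edgeR, and 0 passed in DESeq2; at an unadjusted p under 0.05 there was 1, *Lama4*. *Lama4*, the alpha chain of laminins made by vascular endothelium, had levels of 17.9, 22.1 and 26.03 RPM in LSD-treated rats and 16.9, 18.7 and 26.2 RPM in controls. With 9 LSD-treated rats above the control median, its difference was 0.17 (SE 0.081, adjusted p = 0.152). Without control 10 it passed (adjusted p = 0.0300), and that rat also had the highest sum of fibroblast markers. *Lama2*, the alpha chain of laminins around vessels, was at 0.16 (SE 0.16, adjusted p = 0.546), and *Lama1*, an alpha chain of the meningeal and early basement membranes, at 0.06 (SE 0.16, adjusted p = 0.838). *Lama5*, the second endothelial alpha chain, was at -0.05 (SE 0.12, adjusted p = 0.838).

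The beta and gamma chains, which most laminin trimers share, were the most evenly matched. *Lamb1* ranged from 31.1 to 55.3 RPM in LSD-treated rats and from 29.0 to 55.9 RPM in controls, and *Lamc1*, the gamma chain of nearly all brain laminins, from 48.9 to 69.3 RPM and from 34.1 to 71.4 RPM. Their log2 fold changes were 0.00 (SE 0.11, adjusted p = 0.997) and 0.03 (SE 0.10, adjusted p = 0.897). *Lamb2*, the beta chain of mature vessels and synapses, had medians of 109.1 RPM in LSD-treated rats and 117.6 RPM in controls, a difference of -0.15 (SE 0.12, adjusted p = 0.421), the most negative laminin value. The sign of *Lama1*, *Lama5*, *Lamb1* and *Lamc1* turned under other scalings or offsets, so these data give no direction for them.

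Of the integrins, 3 subunits passed, and they moved in opposite directions. *Itgav* encodes the alpha V subunit, which binds the RGD motif of fibronectin and vitronectin and pairs with several beta subunits, beta 5 and beta 8 among them. Its levels were 77.4, 89.2 and 93.8 RPM in LSD-treated rats and 53.1, 69.9 and 82.4 RPM in controls. Every LSD-treated rat lay above the control median and 8 lay above all controls. It rose 1.24-fold (0.31, SE 0.068, adjusted p = 0.00807).

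*Itgb5*, which encodes a beta subunit that pairs with alpha V alone, had the smallest adjusted p of all 75 members. Its levels were 59.2, 66.2 and 71.3 RPM in LSD-treated rats and 71.1, 80.3 and 95.6 RPM in controls. Only LSD-treated rat 9 reached into the control range, above the lowest control, and the other 9 lay below all controls. It fell by 0.33 on the log2 scale (SE 0.055, adjusted p = 0.00357). Both *Itgav* and *Itgb5* passed in each of the 12 alternatives and without any 1 rat. *Itgb7*, a beta subunit of lymphocytes, had 6 to 19 reads per rat and also fell, by 0.55 (SE 0.18, adjusted p = 0.0454). Its levels were 0.277, 0.447 and 0.759 RPM in LSD-treated rats and 0.392, 0.743 and 0.957 RPM in controls. The call held without 5 of the 20 rats taken out in turn and in 5 of 12 alternatives, and DESeq2 did not make it (adjusted p = 0.0775). The 8 markers of circulating leukocytes summed to between 0.877 and 7.34 RPM, and only 2 of them had enough reads to be tested, neither passing. All 5 red blood cell markers had negative values, with a median of -0.39, and *Hbb* passed (-0.50, SE 0.17, adjusted p = 0.0434); they summed to between 247 and 616 RPM in LSD-treated rats and between 335.7 and 930 RPM in controls. Their part in the difference of *Itgb7* was not tested.

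**Figure D2:**
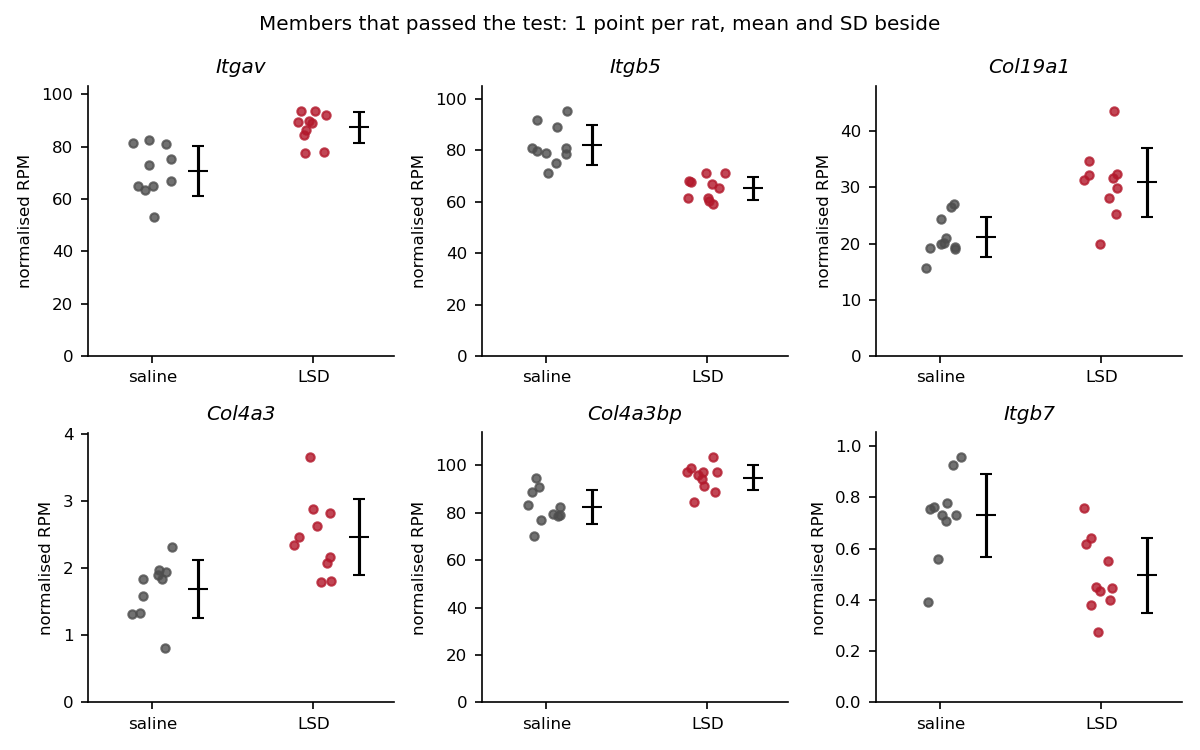
Normalised RPM (y axes, from 0) of the 6 members that passed, with 1 point per rat for 10 controls and 10 LSD-treated rats and the mean and SD beside each group. *Itgb5* shows the least overlap, with 9 LSD-treated rats below all controls, and *Itgb7* sits below 1 RPM in every rat.

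In each rat the level of *Itgav* was divided by that of *Itgb5*, a comparison chosen after their values were seen and therefore given without a test. The ratio ran from 1.16 to 1.49 in LSD-treated rats, with a median of 1.35, and from 0.656 to 1.14 in controls, with a median of 0.859. All 10 LSD-treated rats lay above all 10 controls. A ratio of a gene called higher to a gene called lower favours such separation, and its share among other pairs of this kind was not computed. Across rats, with the group means removed, the 2 transcripts showed no correlation (Pearson's r = -0.01, Spearman's rho = 0.05, adjusted permutation p = 0.960 and 0.833).

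**Figure D3:**
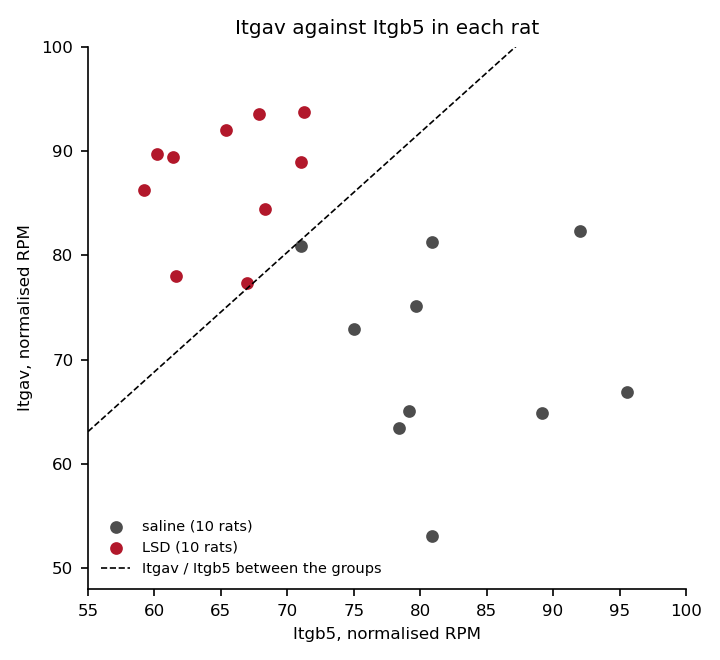
Normalised RPM of *Itgb5* (x axis) and *Itgav* (y axis) in each of 10 controls (grey) and 10 LSD-treated rats (red); neither axis starts at 0. The dashed line is the *Itgav* to *Itgb5* ratio midway between the lowest LSD-treated rat, 1.16, and the highest control, 1.14, and the groups lie on either side of it.

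The other partners of alpha V did not pass. *Itgb8*, which with alpha V releases active TGF-beta at the surface of glia, had levels of 38.2, 44.2 and 50.6 RPM in LSD-treated rats and 30.3, 36.2 and 51.0 RPM in controls. All 10 LSD-treated rats lay above the control median, but within the control range, and the difference was 0.20 (SE 0.087, adjusted p = 0.113). *Itgb1*, the most widely shared beta subunit, was at -0.13 (SE 0.083, adjusted p = 0.309), with medians of 71.2 RPM in LSD-treated rats and 78.8 RPM in controls. *Itga5*, the fibronectin receptor subunit that pairs with beta 1, was at -0.14 (SE 0.14, adjusted p = 0.543).

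*Itga1*, the collagen receptor subunit of vessels, had levels of 2.36, 3.31 and 4.61 RPM in LSD-treated rats and 1.36, 2.49 and 3.29 RPM in controls, from 27 to 101 reads. Of the LSD-treated rats, 5 lay above all controls, and the difference of 0.41 (SE 0.14) missed the threshold (adjusted p = 0.0571) but passed in 5 of 12 alternatives, DESeq2 among them (adjusted p = 0.0372). *Itga6*, a laminin receptor subunit, was at 0.12 (SE 0.078, adjusted p = 0.297). Among leukocyte and microglial integrins, *Itgal* had the largest positive value of the family, 0.50 (SE 0.26, adjusted p = 0.207), but it came from 1 animal. LSD-treated rat 3 had 18.1 RPM, whereas the other LSD-treated rats had between 3.03 and 5.52 RPM and controls between 3.06 and 4.58 RPM. Without that rat the value was 0.07 (adjusted p = 0.730). *Itgb2*, the beta subunit that pairs with it, was at 0.01 (SE 0.088, adjusted p = 0.945), and LSD-treated rat 3 was highest there too, at 18.2 RPM.

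Genes around these families were described from lists of partners, by counts alone. Of 25 tested enzymes that modify collagen, 0 were called higher and 2 lower, *Plod3*, a lysyl hydroxylase (-0.21, SE 0.071, adjusted p = 0.0458), and *P3h4*, a prolyl hydroxylase partner (-0.26, SE 0.083, adjusted p = 0.04). Of 12 partners in the basement membrane, such as nidogens and perlecan, 0 were called in edgeR. Of 4 other collagen receptors, *Ddr1*, a receptor tyrosine kinase abundant in oligodendrocytes, fell (-0.28, SE 0.081, adjusted p = 0.0230). All 7 oligodendrocyte markers also had negative values, with a median of -0.36, and 1 of them passed; their part in this difference was not tested. Of 22 adaptors and kinases that link integrins to actin, 0 rose and 3 fell: *Zyx* (-0.34), *Bcar1* (-0.26) and *Kank1* (-0.26). Of 13 matrix proteases and inhibitors, *Mmp14*, a membrane protease that cuts collagen, fell (-0.61, SE 0.17, adjusted p = 0.0194) and *Mmp16*, a close relative of it, rose (0.25, SE 0.066, adjusted p = 0.0173). The list medians lay between -0.16 and -0.03. Of all genes tested, 15.0% were called.

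Chains of 1 molecule were compared across the 20 rats with group means removed, which asks whether partners vary together and is no comparison of LSD with saline. Of 18 pairs listed, 17 could be tested, and 7 had an adjusted permutation p under 0.05. Pairs of chains that share no molecule were not compared, so this count has no background beside it. *Col4a1* and *Col4a2*, which share the start region shown above, gave Pearson's r = 0.78 and Spearman's rho = 0.79 (adjusted p = 0.00136 and 0.00272), and r = 0.75 without the 2 rats farthest from the median. *Lamb1* and *Lamc1* gave r = 0.81 (adjusted p = 0.00603), but rho = 0.49 (adjusted p = 0.0936) and r = 0.45 without 2 rats, so that this relation rests on them. *Itga5* and *Itgb1* gave r = 0.62 (adjusted p = 0.0206; rho = 0.54, adjusted p = 0.0632), *Col5a1* and *Col5a2* r = 0.61 (adjusted p = 0.0274; rho = 0.69, adjusted p = 0.0116), and *Itgav* and *Itgb8* r = 0.59 (adjusted p = 0.0468; rho = 0.47, adjusted p = 0.119). *Lamc1* gave r = 0.54 with both *Lamb2* and *Lama5* (adjusted p = 0.0468 for each). Without the 2 rats farthest from the median, only *Col4a1* with *Col4a2* kept an adjusted p under 0.05. Within LSD-treated rats alone this pair also passed (r = 0.88, adjusted p = 0.0144), and within controls it had r = 0.73 (adjusted p = 0.0790).

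The spread between rats of the same group had a higher median in these families than in all genes. The genes at large were not matched to the families for expression level, on which this spread can depend. Whether the families vary more than genes of like level was not tested. The median SD within groups on the log2 scale was 0.282 for collagens, 0.286 for laminins and 0.234 for integrins, beside 0.178 for all genes. *Col3a1* and *Col1a1* were the extremes, with 11.3-fold and 11.8-fold between the lowest and the highest of the 20 rats. The levels of these 2 genes followed the summed markers of fibroblasts. Of 12 fibroblast markers, none at 0 throughout, 11 were tested and none differed between groups in edgeR, but 10 had a negative value, with a median of -0.29.

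Correlations of the 75 members with the summed markers of 7 cell types were computed over the 20 rats with group means removed. This gave 525 relations. No other gene was correlated with these markers, so the counts below have no share of all genes beside them. With fibroblast markers, 14 collagen symbols, 6 laminins and 5 integrin symbols had a positive r with an adjusted p under 0.05, and none a negative one. *Col3a1* reached r = 0.98 (rho = 0.94), *Col18a1* 0.97 (rho = 0.94), *Col1a1* 0.94 (rho = 0.89), *Lama2* 0.90 (rho = 0.91) and *Itgb4*, the beta subunit of hemidesmosomes, 0.88 (rho = 0.83), with adjusted p between 0.000375 and 0.000926 for both coefficients. Without the 2 rats farthest from the median, r was 0.96, 0.95, 0.90, 0.87 and 0.79 in the same order. Mural cell markers correlated with fibroblast markers at r = 0.86, and endothelial markers at 0.62, so that these lists do not separate the cell types of the vessel wall.

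**Figure D4:**
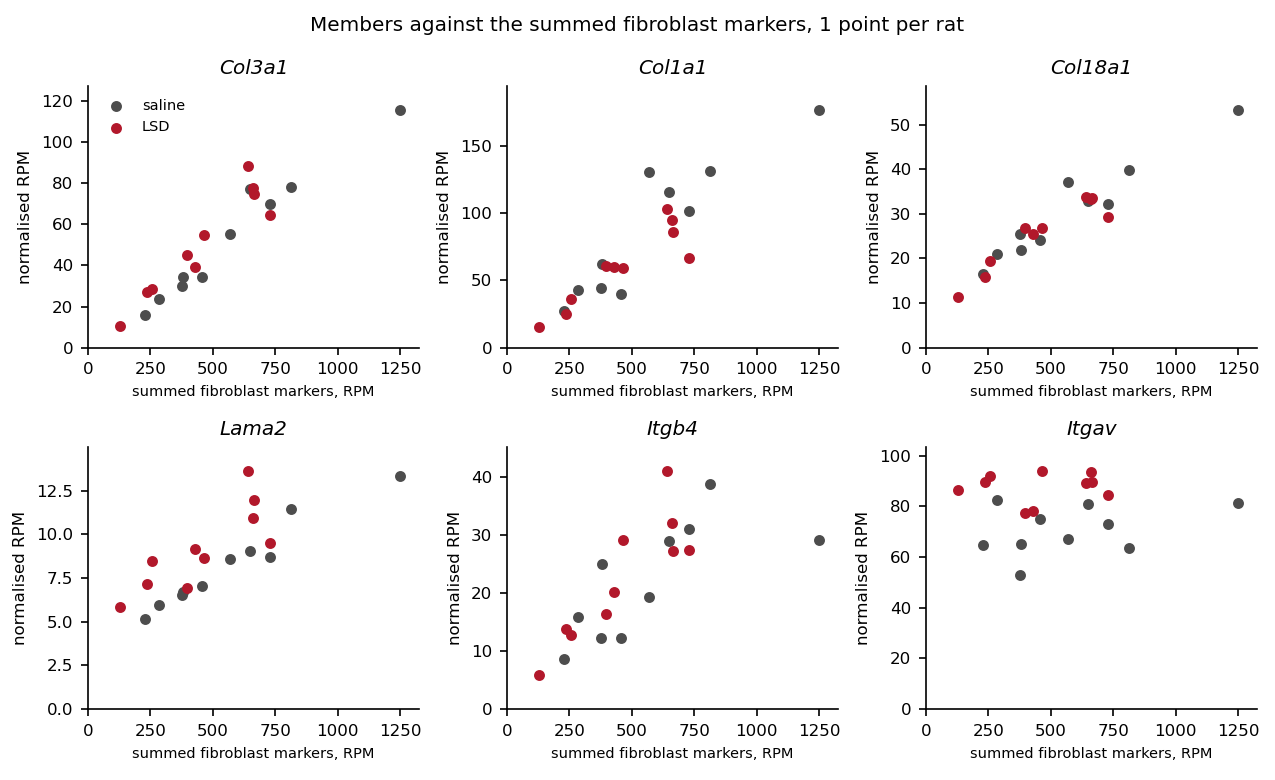
Normalised RPM of 6 members (y axes, from 0) against the sum of 12 fibroblast markers (x axes, from 0) in 10 controls (grey) and 10 LSD-treated rats (red). *Col3a1*, *Col1a1*, *Col18a1*, *Lama2* and *Itgb4* follow the sum, with r between 0.88 and 0.98, and *Itgav*, with r = 0.20, does not.

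The endothelial sum and the fibroblast sum shared their lowest rat, LSD-treated rat 3, and their highest, control 10. *Col6a2* (21.0 and 67.6 RPM) and *Lamb2* (74.5 and 163.1 RPM) were also lowest and highest in these rats. They are therefore no set apart from the members that followed fibroblast markers. Several members correlated with endothelial markers. *Lama5* gave r = 0.83 (rho = 0.82), *Col6a2* 0.83 (rho = 0.77), *Lamb2* 0.79 (rho = 0.77) and *Itga5* 0.74 (rho = 0.69), with adjusted p between 0.00102 and 0.0101 for both coefficients. *Itga1* (r = 0.69, rho = 0.75, adjusted p = 0.00848 and 0.00197) and *Col4a1* (r = 0.70, rho = 0.69, adjusted p = 0.0138 and 0.0169) correlated with endothelial markers as well; with fibroblast markers they gave r = 0.35 and 0.40 (adjusted p = 0.325 and 0.240). *Itgal* and *Itgb2* followed microglial markers at r = 0.85 (rho = 0.77, adjusted p = 0.00798 and 0.00255) and 0.84 (rho = 0.62, adjusted p = 0.00391 and 0.0293). Both values of r dropped without 2 rats, to 0.50 and 0.42, LSD-treated rat 3 being 1 of these. *Itgb1* followed astrocyte markers (r = 0.81, rho = 0.83, adjusted p = 0.000525 and 0.00114), and *Col9a3* oligodendrocyte markers (r = 0.77, rho = 0.66, adjusted p = 0.00320 and 0.0299). The 6 members that passed the test of LSD against saline had no r with an adjusted p under 0.05 for any of the 7 cell types; *Itgav* gave 0.20 with fibroblasts and *Itgb5* 0.02.

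**Figure D5:**
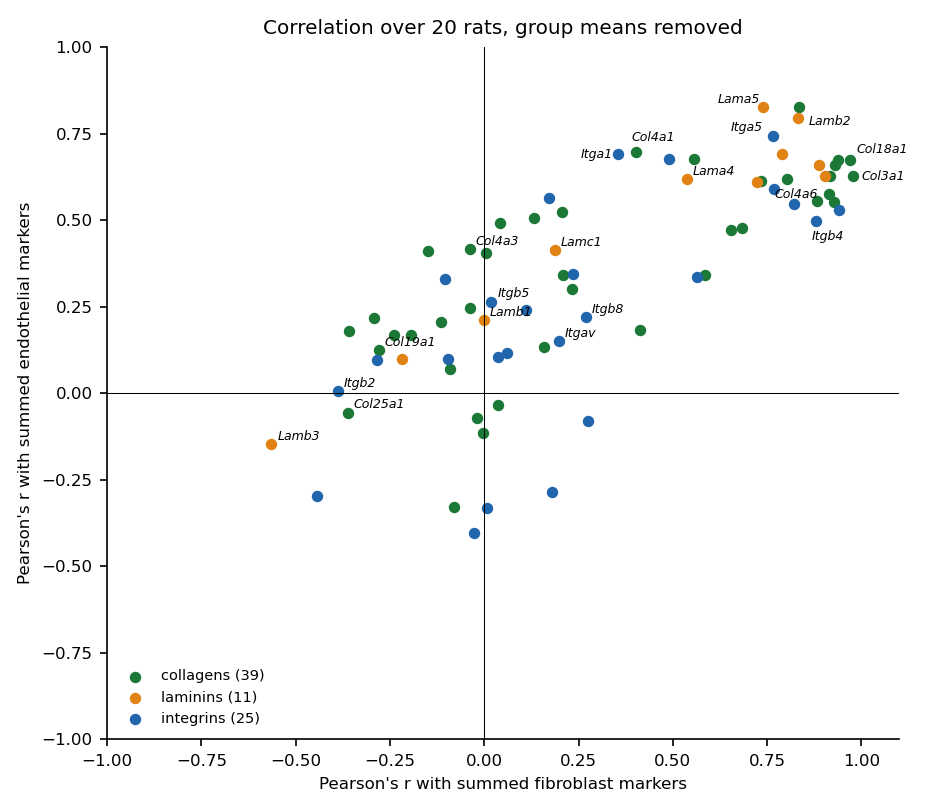
Pearson's r of each of 39 collagen (green), 11 laminin (orange) and 25 integrin (blue) symbols with the summed fibroblast markers (x axis) and endothelial markers (y axis), over 20 rats with group means removed. *Col3a1* and *Col18a1* lie farthest to the right, *Lama5* is among the highest, and *Itgav*, *Itgb5* and *Col19a1* lie near the centre.

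When the fibroblast sum was added to the edgeR model as a covariate, an analysis chosen after the data were seen, 7 collagen symbols, 2 laminins and 4 integrin symbols were called, beside 16.8% of all genes. *Col3a1* turned from -0.07 to 0.32 (adjusted p = 0.0159), *Lama2* was at 0.33 (adjusted p = 0.0139) and *Lama4* at 0.22 (adjusted p = 0.0437), while *Col1a1* stayed negative and did not pass. Without the rats with the highest and the lowest fibroblast sum, control 10 and LSD-treated rat 3, *Col3a1* was at 0.26 (adjusted p = 0.576). Of the members called without the covariate, all but *Itgb7* were also called with it. The part of tissue composition in the other differences was not tested.

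Genes of long span tended to higher log2 fold changes across all genes, and many members are long. Over 14929 genes with a span in GRCr8, Spearman's rho between span and log2 fold change was 0.36; over the 75 members it was 0.52 and over the 39 collagen symbols 0.59, given as descriptions, since genes are not independent replicates. Of 33 members longer than 100000 bases, 72.7% had a positive log2 fold change, beside 72.0% of all genes of that size. Of 42 shorter members, 42.9% had one, beside 45.1% of all genes. With an offset in edgeR for each rat that follows span, *Col19a1* (0.43, adjusted p = 0.0121), *Itgav* (0.22, adjusted p = 0.0148) and *Itgb5* (-0.43, adjusted p = 0.00155) were called. *Col4a3*, *Col4a3bp* and *Itgb7* were not, beside 10.2% of all genes called. After this offset rho was 0.05 over all genes, but 0.39 over the 75 members and 0.48 over the 39 collagen symbols. The offset thus left much of the relation with span among the members.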

How the data were processed

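Reads from 20 rats, 1 library each, were trimmed by the authors with TrimGalore, aligned with HISAT2 to rn6 and counted per gene with HTSeq-count; versions, gene annotation and strand setting are not given in the sources used here. The deposited values are raw counts, neither normalised nor filtered, in 1 table whose columns carry the sample titles, from which groups were taken. The 5 entries with no gene name, 25.5% to 29.0% of the reads, were left out. No 2 libraries were identical.

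The 16605 genes that reached 5 reads in 10 or more rats, the filter of the study's methods, were normalised by TMM and tested with the quasi-likelihood F test of edgeR 4.0.16 under R 4.3.3. Adjusted p-values follow Benjamini and Hochberg over all of these genes, with a threshold of 0.05. The test was checked on simulated counts. The alternatives were DESeq2 1.42.0, scaling by median ratios or by total counts, no filter or one at 10 reads, a block for replicate number, 1 surrogate variable (sva 3.50.0), reads drawn down to the smallest library, an offset following gene span (GRCr8, 89.9% of genes matched by symbol, 50 bins), and each rat left out. The fibroblast covariate, the analysis without the rats at both ends of the fibroblast sum and the correlations with cell type markers were added after the data were seen. Correlations used log2(RPM + 1) and 100000 permutations within groups (scipy 1.17.1). Without strand information, reads of overlapping antisense genes cannot be told apart.

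Members and lists were chosen with earlier results of these data known. Named were members past the threshold, a list of 25 symbols, of which 23 were tested, and the largest positive and negative value of each family, 28 tested members in all since these overlap; *Itgb4*, *Itga7*, *Itga8*, *Col4a4*, *Col6a2*, *Col9a3* and *Col14a1* were named after their values were seen. The depth of 11098076 to 25552681 reads sets the precision of low genes such as *Itgb7*.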

Additional observations from a re-analysis of the deposited data

Results flagged for a closer look

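In 9 of 76 groups of 10 rats examined, named members and marker sums among them, the highest or the lowest rat stood apart. The gap to the other rats, as a share of the group's range, exceeded Dixon's 95% critical value. About 1 in 20 groups, 3.8 here, would do so by chance if groups were independent and values normally distributed. The groups share the same rats and RPM can be skewed, so 3.8 is a rough guide only. LSD-treated rat 3 and control 10 account for 3 of the 9 each. LSD-treated rat 3 had 18.1 RPM of *Itgal*, beside 3.03 to 5.52 RPM in the other LSD-treated rats, 18.2 RPM of *Itgb2*, beside 10.5 to 13.7 RPM, and 568 RPM for the summed microglial markers, beside 370.2 to 415.1 RPM. Control 10 had 107.9 RPM of *Itgb1*, beside 64.8 to 84.0 RPM in the other controls, 9.71 RPM of *Lama1*, beside 3.60 to 6.44 RPM, and 628 RPM for the summed mural cell markers, beside 241.7 to 424.4 RPM. LSD-treated rat 10 had the lowest *Lamb1* of its group, 31.1 RPM, beside 44.2 to 55.3 RPM. Control 4 had 16.4 RPM of *Itgb2*, beside 11.2 to 13.2 RPM, and LSD-treated rat 6 had 7.34 RPM for the summed markers of circulating leukocytes, beside 1.01 to 2.84 RPM.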

How the results depend on the processing

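Of 72 results for the 6 called members under 12 alternatives, 62 kept direction and call and 10 lost the call; none reversed. *Itgb7* accounts for 7 of the 10, and *Col4a3* and *Col4a3bp* for the other 3, all with the gene span offset. All genes called numbered 2494 and, without 1 rat, between 1566 and 3548; the lowest counts came without LSD-treated rat 8 (1566) and without control 4 (1662). Scaling by total counts, which moved the median of all genes by 0.05, called 1504 genes higher and 858 lower in place of 1076 and 1418, and no filter on low counts called 960 and 836, but neither turned a called member.

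Collagens called numbered 5 with a surrogate variable, with *Col14a1* and *Col25a1* gained, beside 18.2% of all genes. They numbered 1 with the span offset (beside 10.2%), 7 with the fibroblast covariate (beside 16.8%), and 2 to 4 without 1 rat. Laminins called numbered 2 with that covariate and 1 without the rats at both ends of the fibroblast sum (beside 16.4%), and 0 to 1 without 1 rat, the 1 being *Lama4* without control 10. Integrins called numbered 5 without the end rats, *Itga1* and *Itga8* gained, and 2 to 5 without 1 rat. The 5 came without control 2, when *Itga7* and *Itgb8* passed and 21.4% of all genes were called. Across the analyses without 1 rat, 9.43% to 21.4% of all genes were called. Partner pairs past the threshold numbered 7, and 9 with total counts (*Itgav* and *Itga6*, each with *Itgb1*, gained), 2 with Spearman's rho, 1 without 2 rats, 1 in LSD-treated rats alone and 0 in controls alone; the cause was not tested.

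Values near 0 changed sign, and 57 of 896 results for named members did so. *Col3a1* went to 0.32 with the fibroblast covariate and 0.26 without the end rats; *Col6a1* to -0.0051 with the covariate; *Lama5* to 0.046, 0.049 and, with total counts, 0.0026; *Itgb2* to -0.027 and -0.047 with the covariate and without the end rats. With the span offset alone and with the replicate block, values were -0.088 and -0.090 for *Col4a2*, -0.028 and -0.037 for *Itgb2*, -0.028 and -0.017 for *Lama1*, -0.067 and -0.056 for *Lamb1*, and -0.060 and -0.047 for *Lamc1*. With DESeq2, median-ratio factors and a surrogate variable, *Col4a2* was at -0.0015, -0.0010 and -0.00030, and *Lamb1* at -0.0031, -0.0016 and -0.0017, with -0.0019 at equal depth. Without 1 rat, values ran from -0.19 to 0.14 for *Col3a1*, -0.050 to 0.053 for *Col4a2*, -0.054 to 0.096 for *Col6a1*, -0.060 to 0.062 for *Itgb2*, -0.10 to 0.022 for *Lama5*, -0.061 to 0.058 for *Lamb1* and -0.041 to 0.061 for *Lamc1*.

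Rats share replicate numbers in the labels, and deviations of same-numbered rats correlated above 0.1 in 6 of 10 pairs (-0.26 to 0.47). Their mean was 0.15, beside -0.016 for other pairs, and 3 of 20 rats correlated best with their own number. These values do not settle whether the numbers mark a pairing or a shared batch, and the main test used no block. With the replicate block, 1355 genes were higher and 1606 lower (17.8% of all), 3 collagens, 0 laminins and 3 integrins were called, *Itgb8* passed (0.22, adjusted p = 0.0454) and *Itgb7* did not. Depth limits members with under 20 reads, such as *Itgb7*.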

Other observations

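The ratio of *Col1a1* to *Col3a1*, neither of which passed, was chosen after the values were seen and is given without a test. It ran from 0.904 to 1.52 in LSD-treated rats, with a median of 1.19, and from 1.16 to 2.36 in controls, with a median of 1.60. All 10 LSD-treated rats lay below the control median, and 4 lay below all controls, while the other 6 lay within the control range. Both followed the summed fibroblast markers, at r = 0.94 and 0.98.

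The ratio of *Itgav* to *Itgb1* ran from 0.966 to 1.49 in LSD-treated rats and from 0.708 to 1.20 in controls, with 6 LSD-treated rats above all controls. For *Itgav* to *Itgb8* the groups overlapped from end to end, at 1.67 to 2.28 and 1.47 to 2.37.

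*Col1a2* had 95 of its 143 reads in LSD-treated rat 6, the rat with the highest sum of circulating leukocyte markers. The other rats had between 0 and 15 reads, and *Col1a1* in the same libraries had 303 to 3510.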
